A study of Homo sapiens with 6 samples.

Results

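The genes examined here load and display peptides on major histocompatibility complex (MHC) class I molecules. They were chosen by gene symbol from 8 names: HLA-B, HLA-C, HLA-E, B2M, TAP1, TAP2, TAPBP and ERAP1. Of these, 5 were measured, HLA-B, HLA-C, B2M, TAP2 and ERAP1, among 11679 genes in all. HLA-E, TAP1 and TAPBP were not analysed here. The cells were 786-O, a human clear cell renal carcinoma line known for its loss of VHL function. They were transfected, by the reagent DharmaFECT 1, with a non-targeting AllStars siRNA (NTC, the control), with ALYREF siRNA5 or with ALYREF siRNA8, and harvested at 48 h. ALYREF is an adaptor protein that couples processing of messenger RNA to its export from the nucleus. Each of the 3 groups held 2 libraries of polyadenylated RNA from cells in RPMI medium with 10% FBS, so that all groups share the line, the medium and the transfection.

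MHC class I molecules show fragments of the cell's own proteins to CD8+ T cells. A polymorphic heavy chain, made from genes such as HLA-B and HLA-C, pairs with the invariant light chain beta-2 microglobulin, the product of B2M. Peptides cut by the proteasome enter the endoplasmic reticulum (ER) through the TAP transporter, which needs TAP2, are trimmed there by the aminopeptidase ERAP1, and are fitted to the heavy chain with the help of chaperones. The promoters of class I genes and of B2M carry sites for NF-kB, for interferon regulatory factors and for the RFX, CREB and NFY proteins to which the coactivator NLRC5 binds. In tumours of many kinds, lower class I levels are known as a route by which cells escape T cells.

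The promoter stretches of HLA-B, HLA-C and B2M are shown because they hold motif matches for some of those factors. The RNA of several of the factors also differed between the siRNAs, as described further on. They come from RefSeq (build GRCh38.p14), run 5′ to 3′ toward the gene and end before its start. Capitals mark matches, on either strand, to 5 motifs. For interferon regulatory factors these are AANTGAAA and a GAAA pair, which is GAAA, any 2 bases and GAAA. For NF-kB the motif is GGG, any 5 bases and CC, called the kB pattern below. The others are TGACG for CREB-type factors and ATTGG, the inverted CCAAT box of NFY. No motif of the RFX proteins was searched or marked.
HLA-B, chr6:31357221-31357366, minus strand: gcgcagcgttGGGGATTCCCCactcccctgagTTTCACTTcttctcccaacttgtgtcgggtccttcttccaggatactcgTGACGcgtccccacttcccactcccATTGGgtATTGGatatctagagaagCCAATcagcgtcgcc
HLA-C, chr6:31272134-31272294, minus strand: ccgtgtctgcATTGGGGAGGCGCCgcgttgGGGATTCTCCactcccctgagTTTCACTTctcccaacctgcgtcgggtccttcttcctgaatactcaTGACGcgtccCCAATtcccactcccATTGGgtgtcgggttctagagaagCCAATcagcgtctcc
B2M, chr15:44711363-44711482, plus strand: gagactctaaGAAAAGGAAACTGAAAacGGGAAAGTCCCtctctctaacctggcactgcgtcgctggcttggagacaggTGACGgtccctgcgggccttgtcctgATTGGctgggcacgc
In HLA-B the capitals open with overlapping NF-kB-type matches, followed by the interferon match TTTCACTT, then TGACG and the CCAAT boxes. In HLA-C an inverted CCAAT box comes before the NF-kB-type matches and overlaps the leftmost of them, and the rest follow in the same order as in HLA-B. In B2M the interferon matches overlap each other and stand just before the NF-kB-type match.

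All 250 bases upstream of the start were searched for each measured gene, with the first of 2 listed starts for ERAP1. AANTGAAA was found for HLA-B, HLA-C and B2M, against 5.60% of the 27305 genes in the promoter table. It was searched as an interferon element known from class I genes, so its matches there are no independent result. The GAAA pair was found for B2M and TAP2, against 3.07% of all. TGACG was found for every measured gene except ERAP1, against 21.7% of all, and ATTGG for every one except TAP2, against 33.0%. The kB pattern was found for all 5, but 53.7% of all genes hold it. At the second listed start of ERAP1 each of the 5 motifs had 0 matches, so its 2 matched motifs depend on the start used. The 250 bases of HLA-B and HLA-C were identical at 226 aligned positions (90.4%), while every other pair of measured genes was identical at 45.2 to 52.4%.

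ALYREF itself fell to 5.67% of the control with siRNA5 (95% interval 4.98 to 6.46) and to 7.83% with siRNA8 (95% interval 6.98 to 8.79), from the authors' deposited tables. The values deposited for each gene are a mean of normalized counts over the libraries and, for each siRNA, a log2 fold change against the control with its standard error, which follows each ± sign here. The depth of each library and its own values are not given in the sources used here. A gene was called where the adjusted p of the authors' Wald test was under 0.05. Of 7 markers chosen for the renal carcinoma line, 5 were measured, among them PAX8 at a mean of 2354 and VIM at 53093 normalized counts. Of these 5, 2 rose and 1 fell with siRNA5, and 3 rose and 1 fell with siRNA8. Of all genes, 24.4% were called higher and 22.0% lower with siRNA5, and 21.0% higher and 20.5% lower with siRNA8. VIM fell by 0.18 with either siRNA, and the HIF gene EPAS1 rose by 0.33 with siRNA5 and 0.53 with siRNA8, per the authors' deposited tables. PAX2 rose by 0.61 with siRNA5 and had -0.01 with siRNA8, per the authors' deposited tables. With siRNA8, PAX8 rose by 0.39 and LOX by 0.78, while with siRNA5 they had -0.05 and -0.17, per the authors' deposited tables. Of 20 markers of T, B, myeloid and endothelial cells and fibroblasts, 3 were measured, CSF1R, PDGFRB and COL1A1, at means of 21.2 to 60.8. The log2 changes with siRNA5 were -0.77 for CSF1R (adjusted p = 0.0275), 0.18 for PDGFRB (adjusted p = 0.786) and -0.37 for COL1A1 (adjusted p = 0.334), per the authors' deposited table. With siRNA8 they were 0.10 for CSF1R (adjusted p = 0.796), -1.53 for PDGFRB (adjusted p = 0.0281) and 0.38 for COL1A1 (adjusted p = 0.296), per the authors' deposited table. The part of these markers in the results below was not tested.

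The light chain was by far the most abundant RNA of the 5. Group means were rebuilt from the mean over libraries and both fold changes, on the premise that the 3 groups weigh equally in that mean, and carry no error of their own. B2M had 8475 normalized counts in the control, 8727 with siRNA5 and 9338 with siRNA8. Its level was lowest in the control and highest with siRNA8. HLA-B had 1326 in the control, 1272 with siRNA5 and 1198 with siRNA8, the opposite order. HLA-C had 383, 356 and 395 in the same groups, so siRNA5 stood lowest and siRNA8 highest. ERAP1 had 916, 853 and 957 normalized counts, which puts the groups in the same order as for HLA-C. Of the changes behind the orders in this paragraph, only that of B2M with siRNA8 was called, as given below. TAP2 was scarce, with 52.4 in the control, 44.9 with siRNA5 and 37.6 with siRNA8.

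Levels of different genes can be set side by side only per length of transcript. Per kb of the longest principal transcript in GENCODE 29, the mean over libraries was 5189 for B2M, 818 for HLA-B, 246 for HLA-C, 165 for ERAP1 and 18.0 for TAP2. Ranked among 10934 genes with such a length, B2M was number 93, HLA-B 1292, HLA-C 3886, ERAP1 5052 and TAP2 9748. The order from B2M down to TAP2 was the same in all 3 groups, and no test was made between genes.

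**Figure D1:**
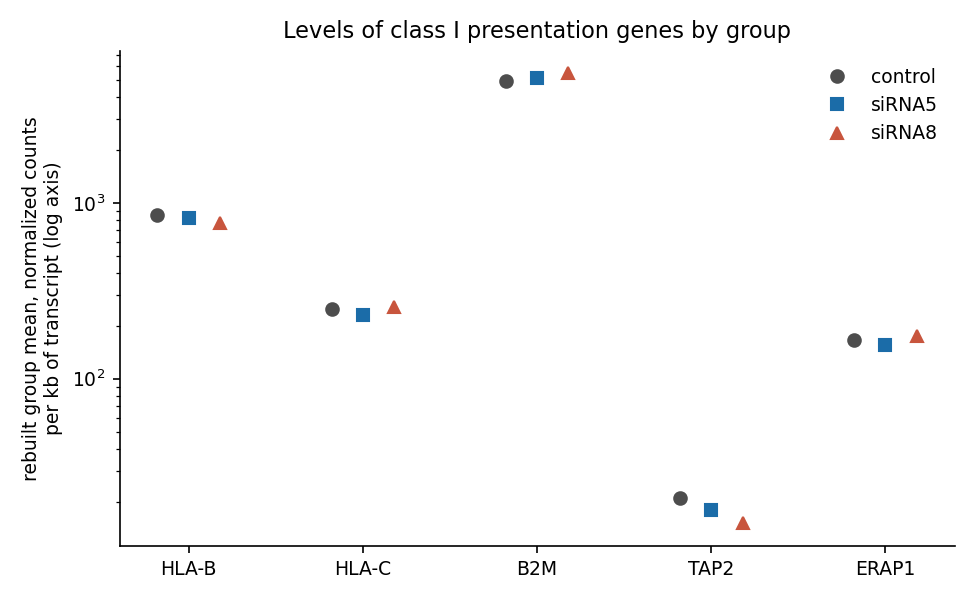
Rebuilt group means of the 5 measured genes, in normalized counts per kb of transcript (log axis), for the control (circles), siRNA5 (squares) and siRNA8 (triangles). The order of the genes is the same in every group, and for each gene the 3 groups lie close together beside the distance between B2M, at 5189 over all libraries, and TAP2, at 18.0.

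The first question, for siRNA5, was whether loss of ALYREF changed the RNA of the class I pathway. None of the 5 genes was called by the authors' DESeq2 test, 0 had an unadjusted p under 0.05 and 0 were called in each alternative run, while 46.4% of all genes were called. Among genes with a mean of at least 100, a group that leaves out TAP2, 0 of 4 were called, against 52.8%. The light chain B2M had a log2 change of 0.04 ± 0.044 (adjusted p = 0.454), per the authors' deposited table. That is 103% of the control, with a 95% interval of 97.0 to 109%. For the heavy chain HLA-B the log2 change was -0.06 ± 0.072 (adjusted p = 0.535), or 96.0% of the control (95% interval 87.0 to 106), from the authors' deposited table. The other heavy chain, HLA-C, had -0.10 ± 0.11 (adjusted p = 0.479), or 93.1% (95% interval 79.9 to 108), from the authors' deposited table. All 3 of these intervals include the control level and reach no lower than 79.9% of it.

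Neither peptide-handling gene was called with siRNA5. ERAP1, the trimming enzyme, had a log2 change of -0.10 ± 0.082 (adjusted p = 0.316), or 93.1% of the control (95% interval 83.2 to 104), from the authors' deposited table. For the transporter subunit TAP2 the log2 change was -0.22 ± 0.31 (adjusted p = 0.588), and the interval ran from 56.4 to 130.1% of the control, from the authors' deposited table. The median log2 change of the 5 was -0.10, beside 0.01 for all genes, and the median absolute change was 0.10, beside 0.25 for all genes. With these standard errors a rise would have been called from 7.11% upward for B2M, 12.1% for HLA-B, 13.8% for ERAP1, 19.4% for HLA-C and 62.2% for TAP2. Fewer cells making a transcript and less transcript per cell cannot be told apart in such bulk RNA.

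With siRNA8, B2M rose and no other gene of the 5 was called. B2M rose by 0.14 ± 0.043 on the log2 scale (adjusted p = 0.00458) per the authors' deposited table, which is 110.2% of the control (95% interval 104 to 117). The call was lost when the standard errors were multiplied by 1.5 (adjusted p = 0.113) and when the test was made against a change of at most 1.1-fold (adjusted p = 1). That is 1 of 5 genes called, and 1 of 4 with a mean of at least 100, while 41.5% of all genes and 46.9% of those with such a mean were called. HLA-B had a log2 change of -0.15 ± 0.072 (unadjusted p = 0.0434, adjusted p = 0.0928), per the authors' deposited table. Its interval ran from 81.9 to 99.7% of the control, just short of the control level, but the change did not pass after adjustment over all rows. HLA-C had 0.04 ± 0.11 (adjusted p = 0.780), or 103% of the control (95% interval 88.8 to 120), from the authors' deposited table. The estimates of the heavy chains lay on either side of the control, and neither passed.

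ERAP1 had a log2 change of 0.06 ± 0.081 with siRNA8 (adjusted p = 0.565), with an interval from 93.6 to 117% of the control, from the authors' deposited table. TAP2 had -0.48 ± 0.31 (adjusted p = 0.217), or 71.8% of the control (95% interval 47.0 to 109.7), from the authors' deposited table. This was the largest estimate among the 5 genes in either comparison, and it came from the scarcest transcript. The median log2 change of the 5 was 0.04, beside 0.01 for all genes, and the median absolute change 0.14, beside 0.23 for all genes. Both comparisons share the same 2 control libraries, so they are not independent of each other.

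**Figure D2:**
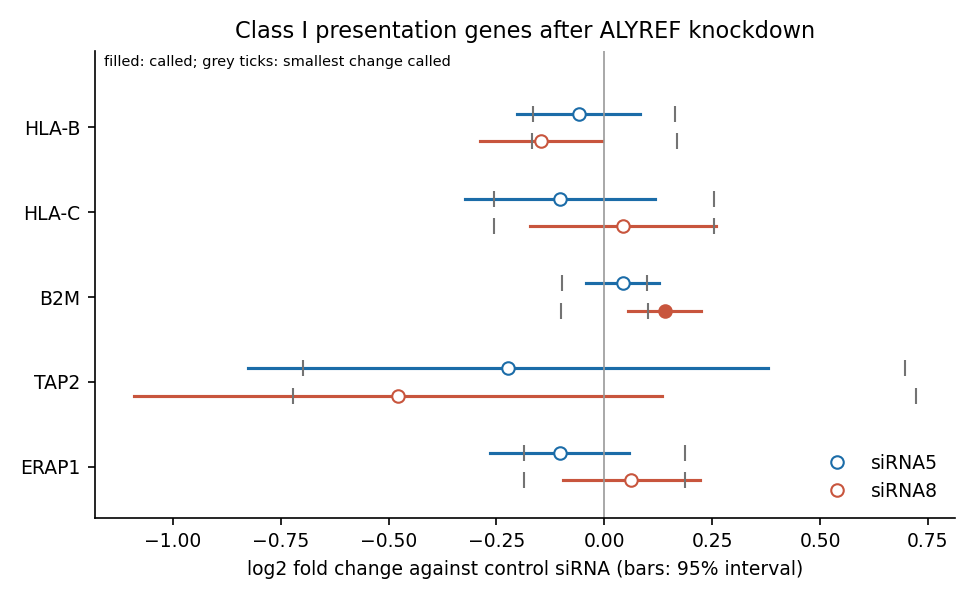
Log2 fold change of each measured gene against the control siRNA (points) with its 95% interval (bars) for both ALYREF siRNAs. Filled points were called, and grey ticks mark the smallest change that would have been called with that standard error. The filled point is B2M with siRNA8, at 0.14, and TAP2 has the widest bars.

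No difference between the siRNAs passed for any of the 5 genes. For each gene the siRNA8 log2 fold change was subtracted from that of siRNA5, with a standard error that is an upper bound because the shared control cancels. Of the 5 genes 0 differed (0 at an unadjusted p under 0.05), while 32.0% of all genes did. The difference, siRNA5 minus siRNA8, was 0.09 for HLA-B (95% interval -0.11 to 0.29), -0.15 for HLA-C (-0.46 to 0.16) and -0.10 for B2M (-0.22 to 0.02). For ERAP1 it was -0.17 (95% interval -0.39 to 0.06) and for TAP2 0.26 (-0.60 to 1.11). The smallest adjusted p of the 5 was 0.234, for B2M. When the control variance was rebuilt from the tables and taken out of that error, still 0 of 5 passed, 2 had an unadjusted p under 0.05, and 48.1% of all genes passed. B2M then had adjusted p = 0.0515 and ERAP1 adjusted p = 0.0815.

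**Figure D3:**
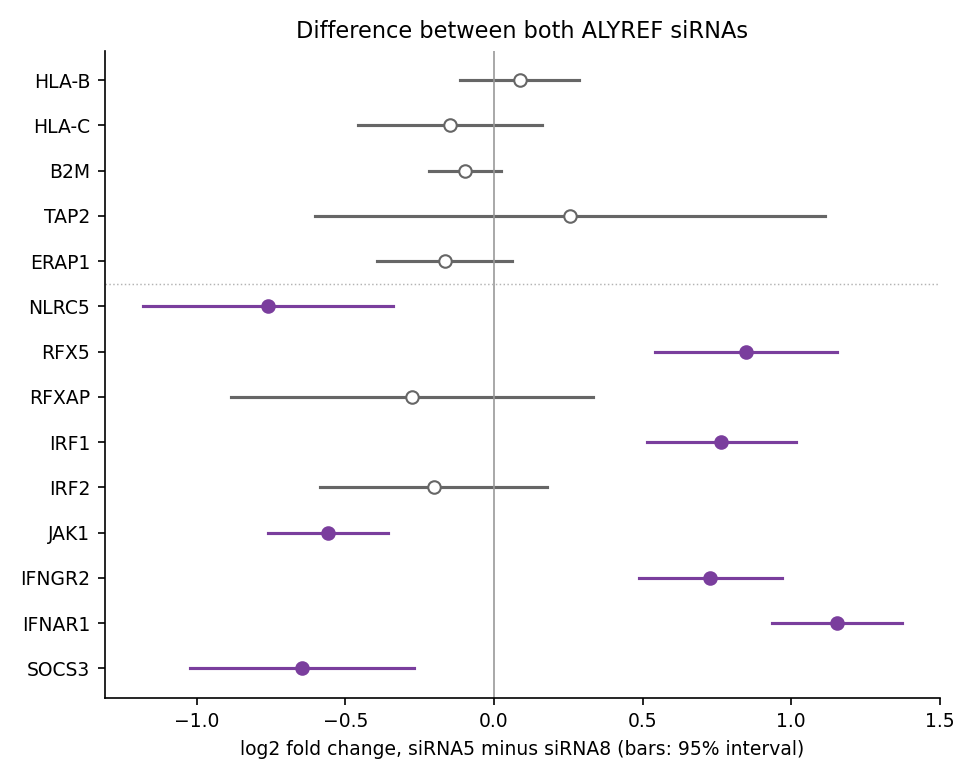
Difference of the log2 fold changes, siRNA5 minus siRNA8, with 95% intervals from the upper-bound standard error. Above the dotted line are the 5 measured class I presentation genes, whose intervals all include 0, and below it are regulators of class I genes, with filled points where the difference passed.

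The heavy chain genes are close copies, and this bears on what their counts mean. The reads were 42 bases long, and the longest coding stretch that reads the same in the reference transcripts of HLA-B and HLA-C has 66 bases. It lies at coding bases 420 to 485 of each, on chromosome 6, and is shown because a single read inside it fits both genes. The reads were paired, and a mate outside such a stretch can still tell the genes apart. The shares below take each read alone, so they are not shares of ambiguous pairs.
HLA-B and HLA-C: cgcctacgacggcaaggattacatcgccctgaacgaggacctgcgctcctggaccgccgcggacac
Of all 42-base windows of the principal transcript, 4.98% for HLA-B and 10.4% for HLA-C occurred also in a transcript of another gene in GENCODE 29. HLA-B and HLA-C shared 49 windows with each other, out of 75 such windows of HLA-B and 156 of HLA-C. The rest occurred only in other genes, and in all the windows of HLA-B were found in 10 genes and those of HLA-C in 8. B2M and ERAP1 had 0 such windows. TAP2 had 80.3%, all of them found in AL669918.1, a gene model that overlaps TAP2 on the same strand, and the GENCODE models of HLA-B and HLA-C also overlap each other on 1 strand. ERAP1 overlaps CAST, a measured gene on the opposite strand. Neither the annotation nor the strand setting of the authors' counting is given in the sources used here. The HLA alleles of 786-O may differ from the reference, and how reads were divided between these and other genes was not tested. The values of HLA-B, HLA-C and TAP2 are uncertain for these reasons, by an amount that was not measured.

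**Figure D4:**
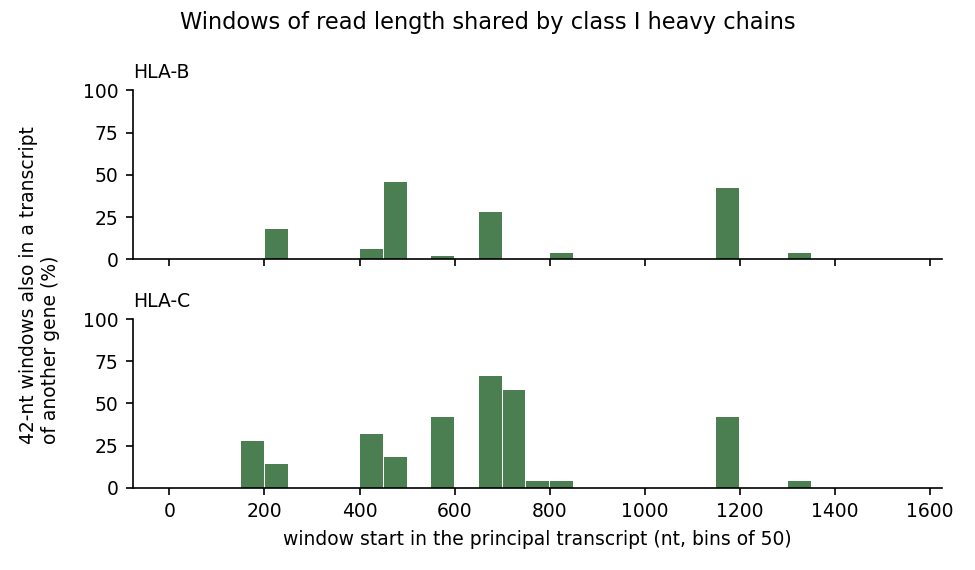
Share of 42-base windows found also in a transcript of another gene, along the principal transcripts of HLA-B and HLA-C, in bins of 50 bases. Shared windows form a few separate peaks in HLA-B (4.98% of all its windows) and HLA-C (10.4%).

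Factors that bind class I promoters changed in both directions. Counts for this and the following lists are to be read beside all genes, of which 24.4% were called higher and 22.0% lower with siRNA5, and 21.0% higher and 20.5% lower with siRNA8. Of the 13 factors, 3 rose and 4 fell with siRNA5 (median log2 change 0.07), and 2 rose and 2 fell with siRNA8 (median 0.13). Against a change of at most 1.1-fold, 4 of the 7 siRNA5 calls and 2 of the 4 siRNA8 calls were counted, and 3 siRNA5 calls with standard errors times 1.5. IRF1, an interferon-induced activator, rose by 0.90 ± 0.089 with siRNA5 (adjusted p = 1.86e-22) and had 0.13 with siRNA8 (adjusted p = 0.255), per the authors' deposited tables. It is an interferon regulatory factor, the family whose motif TTTCACTT matches, but binding of any factor to these promoters was not measured. NLRC5, the coactivator of class I genes, fell by 0.45 ± 0.16 with siRNA5 (adjusted p = 0.0116) and had 0.31 ± 0.14 with siRNA8 (adjusted p = 0.0753), per the authors' deposited tables. The NLRC5 call was lost at a threshold of 0.01, with standard errors times 1.5 and against 1.1-fold.

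The RFX complex, which anchors NLRC5, has the subunits RFX5, RFXAP and RFXANK. RFX5 fell by 0.69 ± 0.11 with siRNA8 (adjusted p = 1.64e-08) and had 0.16 with siRNA5 (adjusted p = 0.235), per the authors' deposited tables. Its partner RFXAP fell by 0.77 ± 0.22 with siRNA5 (adjusted p = 0.00208) and had -0.49 with siRNA8 (adjusted p = 0.0518), per the authors' deposited tables. RFXANK fell by 0.56 ± 0.14 with siRNA5 (adjusted p = 0.000351) and had 0.17 with siRNA8 (adjusted p = 0.323), per the authors' deposited tables. The RFXAP call with siRNA5 was lost with standard errors times 1.5, and with siRNA8 it passed once fold changes were centred on the median of all genes. IRF2, a factor of the same family as IRF1, rose by 0.36 ± 0.14 with siRNA8 (adjusted p = 0.0233) per the authors' deposited table, a call lost under the same 3 alternatives as that of NLRC5. The siRNAs differed by 0.77 ± 0.13 for IRF1 (adjusted p = 3.89e-08), by 0.85 ± 0.16 for RFX5 (adjusted p = 7.69e-07) and by -0.76 ± 0.21 for NLRC5 (adjusted p = 0.00214). HLA-B, HLA-C and B2M, whose promoters are shown above, had no difference that passed.

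Interferon receptors and JAK-STAT genes, which carry the signal that induces class I genes, were called in both directions. Of 12, 4 rose and 1 fell with siRNA5 (median 0.22), and 3 rose and 2 fell with siRNA8 (median -0.12). The type I receptor chain IFNAR1 rose by 0.61 ± 0.076 with siRNA5 and fell by 0.55 ± 0.082 with siRNA8, per the authors' deposited tables. The gamma interferon receptor chain IFNGR2 rose by 0.96 ± 0.085 with siRNA5 and by 0.23 ± 0.088 with siRNA8, per the authors' deposited tables. The kinase JAK1 went the other way from IFNAR1, as it fell by 0.34 ± 0.073 with siRNA5 and rose by 0.22 ± 0.072 with siRNA8, per the authors' deposited tables. SOCS3, a feedback inhibitor, rose by 0.34 ± 0.14 and 0.99 ± 0.13 for siRNA5 and siRNA8 in turn, per the authors' deposited tables. By the test of the difference, 3 were higher and 2 lower with siRNA5 than with siRNA8, or 5 of 12, beside 32.0% of all genes. The calls of SOCS3 with siRNA5 and of IFNGR2 and JAK1 with siRNA8 were lost against a change of at most 1.1-fold, and 2 of the list's 5 siRNA8 calls were left there and with standard errors times 1.5.

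Genes of the proteasome that were called with siRNA5 all rose. Of 9 measured proteasome catalytic subunits and activators, 6 rose and 0 fell with siRNA5 (median 0.19), and 1 rose and 1 fell with siRNA8 (median -0.07). Against a change of at most 1.1-fold, 3 calls with siRNA5 and 0 with siRNA8 were left, and 1 with siRNA8 under standard errors times 1.5. PSME4, the proteasome activator PA200, rose by 0.44 ± 0.063 with siRNA5 and had -0.14 with siRNA8 (adjusted p = 0.0663), per the authors' deposited tables. The activator subunit PSME1, PA28 alpha, rose by 0.19 ± 0.063 and 0.28 ± 0.063 for siRNA5 and siRNA8 in turn, per the authors' deposited tables. PSMB5, a catalytic subunit of the constitutive proteasome, rose by 0.17 ± 0.065 with siRNA5 and fell by 0.22 ± 0.066 with siRNA8, per the authors' deposited tables. Both PSMB5 calls were lost with standard errors times 1.5, as were those of PSME1 with siRNA5 and LAP3 with siRNA8. Of 9 peptidases that trim or destroy peptides, 1 rose and 2 fell with siRNA5 (median 0.01), and 2 rose and 2 fell with siRNA8 (median 0.04). Of the 4 peptidase calls with siRNA8, 1 was left against 1.1-fold and 2 with standard errors times 1.5. IDE, the insulin-degrading enzyme, rose by 0.55 ± 0.069 with siRNA5 and fell by 0.43 ± 0.073 with siRNA8, per the authors' deposited tables. THOP1, thimet oligopeptidase, fell by 0.46 ± 0.056 with siRNA5 and had -0.09 with siRNA8 (adjusted p = 0.173), per the authors' deposited tables. LAP3, leucine aminopeptidase, rose by 0.16 ± 0.052 with siRNA8 and had 0.09 with siRNA5 (adjusted p = 0.134), per the authors' deposited tables.

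Among 9 partners of the peptide-loading complex and ER folding factors, 3 rose and 3 fell with siRNA5 (median 0.04), and 3 rose and 1 fell with siRNA8 (median 0.07), of which 3 calls with siRNA5 and 2 with siRNA8 were left against 1.1-fold. Calreticulin (CALR), which holds the new heavy chain in the loading complex, rose by 0.17 ± 0.040 (adjusted p = 0.000143) with siRNA8 and had 0.04 ± 0.040 (adjusted p = 0.420) with siRNA5, per the authors' deposited tables. PDIA3, its oxidoreductase partner, rose by 0.17 ± 0.046 (adjusted p = 0.000665) with siRNA8 and had 0.09 ± 0.046 (adjusted p = 0.110) with siRNA5, per the authors' deposited tables. With siRNA8, B2M, CALR and PDIA3 rose by 0.14, 0.17 and 0.17, and all 3 calls were lost against a change of at most 1.1-fold. CANX, calnexin, which holds the free heavy chain, rose by 0.47 ± 0.035 with siRNA5 and had -0.05 (adjusted p = 0.228) with siRNA8, per the authors' deposited tables. TAPBPL, the peptide editor TAPBPR, fell by 0.81 ± 0.24 (adjusted p = 0.00294) with siRNA5 from a low mean of 86.7 and had -0.42 (adjusted p = 0.136) with siRNA8, per the authors' deposited tables. The call for TAPBPL was lost with standard errors times 1.5. The glucosidase MOGS, which trims the glycan before calnexin can bind, fell by 0.73 ± 0.081 and 0.53 ± 0.078 for siRNA5 and siRNA8 in turn, per the authors' deposited tables. PRKCSH, a glucosidase II subunit, rose by 0.27 ± 0.045 with siRNA8 and by 0.11 ± 0.046 with siRNA5 (adjusted p = 0.0369), per the authors' deposited tables.

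Genes for the turnover of class I molecules were called in both directions. The list is not limited to genes that act on class I molecules alone. Of 15, 10 rose and 2 fell with siRNA5 (median 0.23), and 5 rose and 5 fell with siRNA8 (median -0.01). The 12 calls with siRNA5 became 5 against 1.1-fold and 7 with standard errors times 1.5, and the 10 with siRNA8 became 6 against 1.1-fold. MARCH4, a membrane ubiquitin ligase that can lower surface class I, rose by 0.82 ± 0.21 and 1.42 ± 0.20 for siRNA5 and siRNA8 in turn, per the authors' deposited tables. TMEM127, an adaptor for the ubiquitination of class I molecules, fell by 0.85 ± 0.090 with siRNA8 and had -0.04 (adjusted p = 0.730) with siRNA5, per the authors' deposited tables. TMEM129, an ER ubiquitin ligase used by a herpesvirus protein to degrade heavy chains, fell by 0.44 ± 0.11 and 0.68 ± 0.11 for siRNA5 and siRNA8 in turn, per the authors' deposited tables. Of 6 polycomb repressive complex 2 genes, a complex known to silence class I genes in some tumours, 1 rose and 1 fell with siRNA5 (median 0.09), and 1 rose and 2 fell with siRNA8 (median 0.02). The methyltransferase EZH2 fell by 0.37 ± 0.059 and its relative EZH1 rose by 0.59 ± 0.13 with siRNA8, per the authors' deposited table. With siRNA5 they had 0.12 (adjusted p = 0.0767) and 0.07 (adjusted p = 0.704) in turn, per the authors' deposited table. The histone-binding subunit RBBP4 fell by 0.61 ± 0.053 and 0.17 ± 0.052 for siRNA5 and siRNA8 in turn, per the authors' deposited tables. SUZ12, a core subunit, rose by 0.29 ± 0.071 with siRNA5 and had 0.11 with siRNA8 (adjusted p = 0.213), per the authors' deposited tables. The calls of RBBP4 with siRNA8 and SUZ12 with siRNA5 were lost against 1.1-fold, and the former also with standard errors times 1.5.

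Few other surface ligands and class II genes were measured. Of 2 class I-like heavy chains, MR1 and HFE, 0 rose and 1 fell with siRNA5 (median -0.66), and 0 rose and 1 fell with siRNA8 (median -0.10). MR1, which presents vitamin metabolites, fell by 1.19 ± 0.40 (adjusted p = 0.00786) with siRNA5 from a low mean of 38.5 and had 0.41 (adjusted p = 0.337) with siRNA8, per the authors' deposited tables. HFE, the iron-regulating class I relative, fell by 0.60 ± 0.24 (adjusted p = 0.0303) with siRNA8 and had -0.13 (adjusted p = 0.683) with siRNA5, per the authors' deposited tables. Both calls were lost with standard errors times 1.5. Of 3 ligands of NKG2D, an activating receptor of natural killer cells, 0 were called with siRNA5 (median 0.46), and ULBP2 fell with siRNA8 (median -0.16), by 0.68 ± 0.17 (adjusted p = 0.000271), per the authors' deposited table. With siRNA5, ULBP2 had 0.19 (adjusted p = 0.333), per the authors' deposited table. Of 13 class II presentation genes 3 were measured, CD74, CTSS and IFI30, at means of 145.8 to 199.9 normalized counts (medians -0.31 and -0.27). The protease CTSS fell by 0.67 ± 0.17 with siRNA5 and had -0.27 with siRNA8 (adjusted p = 0.186), per the authors' deposited tables. The reductase IFI30 fell by 0.80 ± 0.16 with siRNA8 and had -0.08 with siRNA5 (adjusted p = 0.710), per the authors' deposited tables. Over all 81 measured genes of these lists, 43 were called with siRNA5 and 35 with siRNA8, beside 46.4% and 41.5% of all genes. The median absolute log2 changes of the 81 were 0.23 and 0.17, beside 0.25 and 0.23 for all genes. The difference between the siRNAs passed for 40 of the 81, beside 32.0% of all genes, a share that is not matched for level or standard error. By list these were 6 of 13 promoter-bound factors, 5 of 12 interferon genes, 5 of 9 proteasome genes, 3 of 9 peptidases, 3 of 9 loading and folding factors, 10 of 15 turnover genes and 5 of 6 polycomb genes. In the class I-like, NKG2D ligand and class II lists 1 gene each passed.

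**Figure D5:**
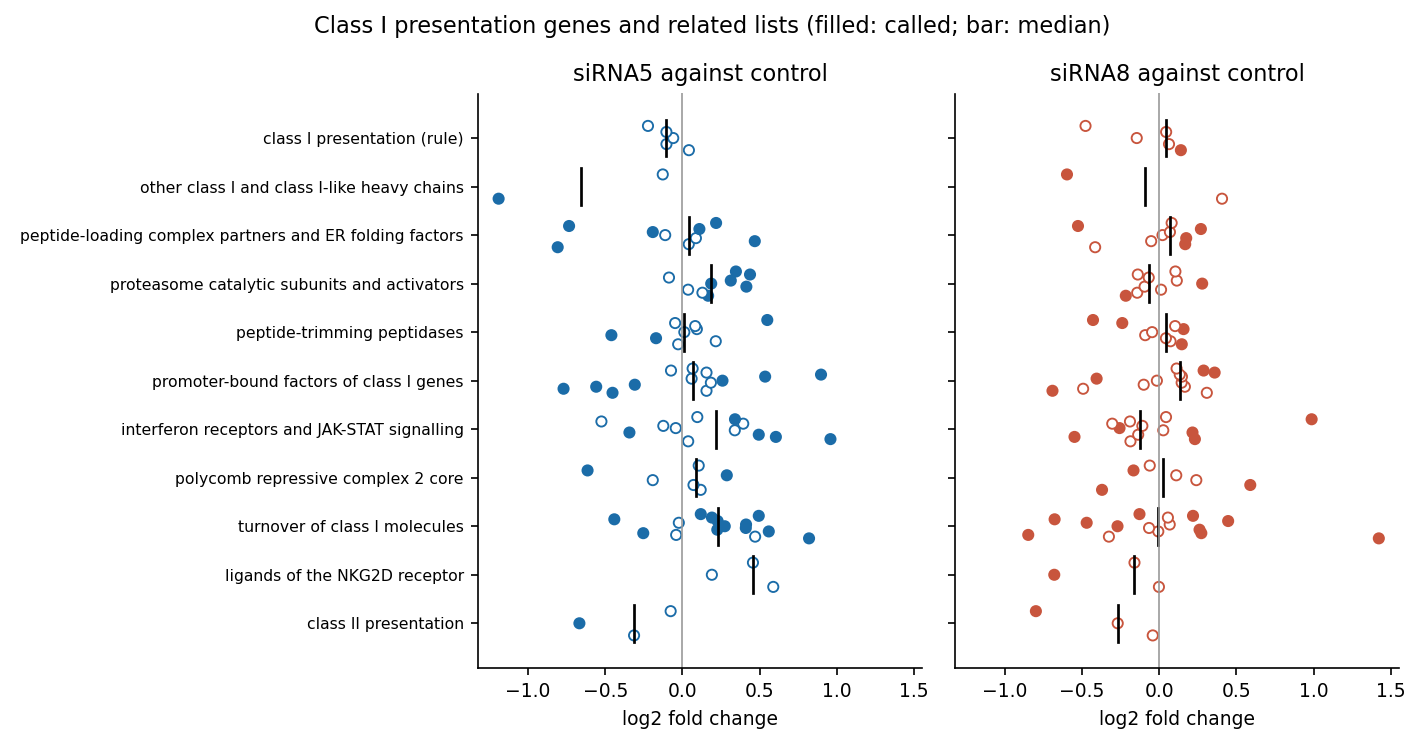
Log2 fold changes against the control of the 5 measured class I presentation genes (top) and of the 10 related lists, for siRNA5 (left) and siRNA8 (right). Each circle is a gene, filled where it was called, and the black bar is the list's median. The 5 genes at the top lie between -0.48 and 0.14, with 0 filled circles for siRNA5 and 1 for siRNA8.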

How the data were processed

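Polyadenylated RNA of 786-O cells was sequenced as paired reads of 42 bases from 6 libraries, in 3 groups of 2. The submitters' processing notes name STAR, Picard, HTSeq and DESeq2, with no versions or settings, and the build hg19. The authors deposited 2 results tables, 1 per siRNA, of 11681 rows: 11679 genes and 2 HTSeq counters, which held 7.85% of the summed means and were left out. Per the file headers, the signal is a mean normalized count, identical in both tables. Per the file headers, the fold change and its standard error are log2 values, and the authors' score is their Wald statistic. The authors' p-values are adjusted by the Benjamini-Hochberg method over all rows, checked by recomputation. The direction was read from ALYREF. The plan foresaw such tables. No values per library were at hand, so p-values rest on the authors' fit. Nothing says that duplicates came from separate cultures, so a p-value here covers the spread between these libraries alone, and that spread may be technical.

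Group means were rebuilt as 3 times the mean divided by the sum of 1 and both folds. The dispersions implied by the 2 standard errors of a gene differed by a median of 2.08% over the 5538 genes whose mean reached 500. The rebuilt control level enters both dispersions alike, and the median standard errors there were 0.0727 with siRNA5 and 0.0722 with siRNA8. The gap is therefore only a weak check of the rebuilt group means. The difference between siRNAs was scaled by both standard errors added in quadrature and adjusted over all genes, in Python 3.11.15 with scipy 1.17.1, and tested on simulated data. Intervals are 95% normal intervals. Sequences came from RefSeq (GRCh38.p14) and GENCODE 29, with no coordinates carried over to hg19. The genes, the 10 lists (108 genes, 81 measured) and the tests were chosen with earlier results of these data known. Genes were named by rule: ALYREF, the 5 genes, the called gene with the largest rise and the deepest fall per list and siRNA, and TAPBPL, CALR, PDIA3, NLRC5, RFX5, IRF1 and IRF2. Some genes of the planned lists are not reported here. The cell type markers were listed in the plan apart from the naming rule. CD74 and RFXANK stand outside that rule and were chosen after their values were seen. Alternatives were a threshold of 0.01, adjustment over genes whose mean reached 100, centring on the median gene, a test against 1.1-fold, standard errors times 1.5, and the control variance rebuilt.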

Additional observations from a re-analysis of the deposited data

Results flagged for a closer look

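No difference between the siRNAs passed for HLA-B, HLA-C, B2M, TAP2 or ERAP1. It did for 21 of the 34 other named genes (adjusted p under 0.05, adjusted over all genes). Most of these genes were named for being the largest rise or deepest fall of a list with either siRNA, a choice that favours a difference, so their number is not set against that of all genes. All values are log2 fold changes of siRNA5 minus siRNA8.

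The target ALYREF differed by -0.47. Among promoter-bound factors the difference was -0.76 for NLRC5, 0.85 for RFX5 and 0.77 for IRF1. In interferon signalling it was 0.73 for IFNGR2, -0.56 for JAK1, -0.65 for SOCS3 and 1.16 for IFNAR1. In peptide supply and loading it was 0.52 for CANX, -0.16 for PRKCSH, 0.58 for PSME4, 0.38 for PSMB5, 0.98 for IDE and -0.37 for THOP1. The polycomb genes RBBP4, EZH1 and EZH2 differed by -0.45, -0.52 and 0.49. The difference was -1.60 for MR1, 0.81 for TMEM127, 0.87 for ULBP2 and 0.72 for IFI30. IFNAR1, IDE and PSMB5 were called higher with siRNA5 and lower with siRNA8, and JAK1 the reverse.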

How the results depend on the processing

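The count of called class I presentation genes stayed at 0 with siRNA5 and at 0 for the difference between siRNAs under every alternative run. With siRNA8 it was 1, B2M, and became 0 with standard errors times 1.5 and 0 against a change of at most 1.1-fold. Against 1.1-fold, 2906 genes were called with siRNA5 and 2455 with siRNA8, in place of 5423 and 4847; with standard errors times 1.5, 3169 and 2599 were. With the control variance rebuilt, 5615 genes differed between the siRNAs, in place of 3739. Of 47 calls against the control among the other named genes, 7 were lost at a threshold of 0.01, 16 with standard errors times 1.5, 16 against 1.1-fold, 1 with centring (PRKCSH with siRNA5) and 0 over genes whose mean reached 100. Of their 21 differences between siRNAs, 2 were lost at 0.01, PRKCSH and EZH1, and 0 in the other settings. With the control variance rebuilt, 5 more of these genes passed, CALR, MOGS, SUZ12, MARCH4 and CTSS. No direction turned. TAP2 has no value over genes whose mean reached 100. Leaving out a replicate was not run, since no values per library were at hand. No paired analysis was possible because the tables hold 1 fold change per siRNA and no columns with replicate numbers. The standard error of TAP2, at a mean of 45.0, limits what can be seen of it.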
